A study of Mus musculus with 18 samples.

Results

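AC261066, an agonist selective for the retinoic acid receptor RARβ2, was compared on the high-fat diet with the diet alone: 6 liver libraries of HFD+AC261066 mice against 6 of HFD mice, for all 13268 genes whose mean log2 value over the 18 libraries of the series was at least 2, of 20512 genes listed. Within that comparison, attention went to genes that moved with the compound while the estimated difference of HFD from chow was close to 0. A gene was taken as near 0 for the diet when HFD minus chow was under 0.1 in size on the log2 scale, and 29 called genes met this. The limit was set on the diet contrast, which shares the HFD livers with the contrast of interest. It holds for the estimate, whose SE over the 29 ran from 0.05 (*Prosc*) to 0.22 (*Aldh1b1*). A diet effect beyond 0.1 is therefore not excluded.

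All mice were wild-type C57BL/6 males, 6 to 7 weeks old at the start. HFD+AC261066 mice ate a diet with 60% of kcal from fat for 4 months and, in the last 2 months, drank water with 3 mg AC261066 per 100 ml. HFD mice ate the same diet, and chow mice (n = 6) a diet with 13% of kcal from fat. The water of every group held 0.2% DMSO, and every mouse was fasted overnight before the liver was taken. No chow group received the compound, so its effect apart from the diet was not measured. The agonist reaches the whole animal, and a liver sample mixes hepatocytes with other cells, so fewer cells of a type and less RNA per cell cannot be told apart. Each library is 1 mouse.

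RARβ is a nuclear receptor. It binds DNA as a partner of a retinoid X receptor (RXR) at direct repeats of a short half-site, and an agonist turns the pair from repression to activation of nearby genes. The gene of the receptor itself, *Rarb*, and *Cyp26a1*, which encodes an enzyme that breaks down retinoic acid, are textbook targets with such an element close to their start. Retinoids are stored in stellate cells of the liver and are handled by many of the same oxidases, dehydrogenases and transferases that clear drugs.

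The deposited values are log2 expression values per gene and library with no counts. The study states only an approximate number of reads per sample, so the depth behind single libraries stays unknown here, and the errors are those of the spread between mice. For every gene the mean of the libraries numbered 1 to 3 equals that of the libraries numbered 4 to 6, and these sets of libraries entered the limma fit as a term. Of the 6 defining hepatocyte markers in the table all had high values and none was called. On the first principal component, the HFD+AC261066 livers lay between -12.5 and 7.22, with HFD+AC261066 replicate 3 alone among the chow livers (-21.4 to -10.9) and the others between these and the HFD livers (8.40 to 21.2). By limma at a Benjamini-Hochberg adjusted p under 0.1, 372 genes were called, which is 2.8% of those tested. Of these 168 were higher (1.27%) and 204 lower (1.54%) with AC261066. At an unadjusted p under 0.05 there were 2085. In the same fit 3880 genes (29.2%) were called for HFD against chow and 2212 (16.7%) for HFD+AC261066 against chow. Most called differences were small: their median size was 0.38, beside 0.08 over all tested genes, and 27 exceeded 1. The groups did not overlap in 164 of the called genes, and in 1.74% of all tested genes.

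The promoters of *Rarb* and *Cyp26a1* are shown first, because they carry the element that RARβ is known to bind. They are the 120 bases before the RefSeq start of each gene (GRCm38.p6), read 5′ to 3′ on the gene's strand, at chr14:16575477-16575596 (minus strand) for *Rarb* and chr19:37697688-37697807 (plus strand) for *Cyp26a1*. Capitals mark a direct repeat of 2 half-sites 5 bases apart, on either strand. The half-site searched for was AGGTCA in its usual form, and the forms that were also accepted were GGGTCA as one variant of it, AGTTCA as another variant and GGTTCA as the last of them.
Rarb: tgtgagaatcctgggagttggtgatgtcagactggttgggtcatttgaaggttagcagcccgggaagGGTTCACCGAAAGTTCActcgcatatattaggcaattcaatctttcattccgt
Cyp26a1: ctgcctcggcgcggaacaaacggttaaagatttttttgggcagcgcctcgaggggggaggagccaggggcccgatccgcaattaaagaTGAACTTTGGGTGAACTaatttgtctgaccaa

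The repeat lies at bases -53 to -37 before the start of *Rarb* and at -32 to -16 before that of *Cyp26a1*. It was found in 29 of 32851 windows of 250 bases before a RefSeq start (0.0883%). Among the 269 called genes that matched a window, with 341 windows, 0 held it, and 0 held the same repeat with a spacer of 1 or 2, which 0.164% and 0.174% of all windows hold. Among windows of all tested genes the repeat with a spacer of 5 lay in 0.0393%. At shares this small 0 is the likeliest count in 341 windows, so it does not set the called genes apart. A missing match says only that these letters are not in that window.

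None of the tested genes in the lists of retinoid receptors, retinoid response and retinoid metabolism was called. *Cyp2c39*, which is known to hydroxylate retinoic acid, is not in these lists and was called lower, as given below with the drug oxidases. *Rarb* had a lowest, median and highest log2 value of 5.97, 6.18 and 6.53 in HFD+AC261066 livers, 5.82, 6.22 and 6.83 in HFD livers, and 5.72, 6.30 and 6.54 in chow livers. The 3 groups overlapped throughout, and the difference of HFD+AC261066 from HFD was -0.02 ± 0.33 (half-width of the 95% interval, adjusted p = 0.969 by limma). None of the 6 genes of RAR and RXR receptors was called or had an unadjusted p under 0.05, and their differences ran from -0.09 for *Rxrg* to 0.12 for *Rarg*. *Cyp26a1* had 4.88, 5.18 and 5.65 in HFD+AC261066 livers, 5.26, 5.81 and 6.23 in HFD livers and 5.76, 6.43 and 6.96 in chow livers. The treated livers were the lowest and overlapped with HFD, with a difference from HFD of -0.58 ± 0.40 (95% interval) that was not called (adjusted p = 0.145). HFD minus chow was -0.65 for this gene (adjusted p = 0.0228), and HFD+AC261066 minus chow was -1.22 (adjusted p = 0.00161).

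Of 10 tested genes in a list of retinoid response genes, 0 were called by limma and 4 had an unadjusted p under 0.05. Of all 13268 tested genes 2085 had an unadjusted p under 0.05. Besides *Cyp26a1* they included *Cyp26b1*, another retinoic acid hydroxylase, with 0.61 (SE 0.25, adjusted p = 0.24), and *Rai14* with 0.16 (SE 0.07, adjusted p = 0.269). Of 19 tested genes of retinoid uptake, storage and metabolism 0 were called and 8 had an unadjusted p under 0.05. They included *Lrat*, which esterifies retinol for storage in stellate cells (-0.34, adjusted p = 0.304), and *Bcmo1*, which cleaves β-carotene (0.30, adjusted p = 0.196). Of these 19 genes 10 had a positive and 9 a negative difference. Their median of 0.01, beside 0.00 over all tested genes, therefore does not show that they moved little.

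Of the 5337 tested genes near 0 for the diet (40.2% of all), 29 were called with AC261066, which is 0.543% of them, beside 2.8% of all tested genes. They make up 7.80% of the 372 called genes. Both contrasts use the HFD livers, with opposite signs, so the limit by itself favours a low share of called genes. With the compound 14 of the 29 were higher and 15 lower, by 0.20 to 0.84 on the log2 scale (median 0.33). The HFD+AC261066 and HFD livers did not overlap in 17 of them, beside 164 of the 372 called genes and 1.74% of all tested genes. Being called favours this. In *Prosc*, *Cenpw*, *Gstm6* and *Ifngr2* the HFD+AC261066 livers lay outside the range of all 12 livers without the compound, as in 0.0904% of all tested genes, and the choice of genes with HFD close to chow favours this. HFD+AC261066 minus chow was called in 25 of the 29, which the choice of genes with HFD close to chow largely fixes. The limit of 0.1 falls among close neighbours: *Tnnt1* (-0.099 for HFD minus chow), *Habp2* (-0.097) and *Sh3bp4* (-0.093) lie just inside, and *Prune* (-0.102), *Il13ra2* (-0.105) and *Cerk* (0.106) just outside. These neighbours were picked from the called genes on both sides, and the 3 on the outside had differences of 0.28, 0.44 and -0.28 with AC261066. Near 0 holds for the mean over both sets of libraries: within each set alone 13 of the 29 had HFD minus chow under 0.1 in size, and the largest was 0.26, for *Gstm6* in libraries 1 to 3, against -0.21 in libraries 4 to 6. A limma test of HFD minus chow between the sets called 0 of the 29 and 0.0603% of all tested genes, a share at which 0 is the likeliest count.

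**Figure D1:**
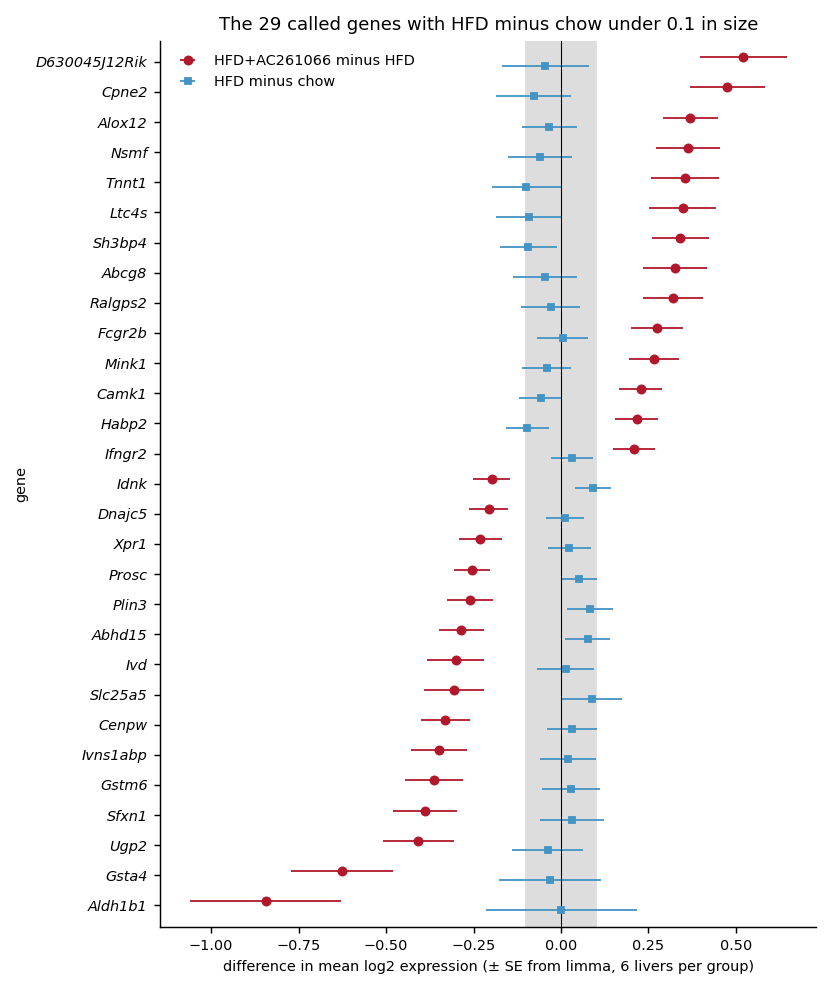
Differences in mean log2 expression (x axis, ± SE from limma, 6 livers per group) for the 29 called genes near 0 for the diet (y axis). Circles are HFD+AC261066 minus HFD and squares HFD minus chow, all of which lie in the shaded range of 0.1 around 0; *Aldh1b1* has the lowest circle at -0.84 and *D630045J12Rik* the highest at 0.52.

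The lower genes included 3 enzymes that conjugate or oxidize reactive compounds, grouped here after their values were seen. *Aldh1b1*, a mitochondrial aldehyde dehydrogenase on chromosome 4 from 45811894 to 45817476 (mm9, as all gene coordinates below), had 9.16, 9.90 and 10.25 (lowest, median, highest) in HFD+AC261066 livers, 10.11, 10.67 and 10.85 in HFD livers and 9.92, 10.59 and 11.48 in chow livers. The groups overlapped, and the difference from HFD was -0.84 (SE 0.22, adjusted p = 0.0608). HFD minus chow was 0.00 (SE 0.22), from -0.13 in libraries 1 to 3 and 0.13 in libraries 4 to 6. *Gsta4*, a glutathione transferase for aldehydes from oxidized lipids (chromosome 9, 78039773 to 78057155), had 8.68, 9.41 and 9.61 in HFD+AC261066 livers, 9.52, 9.93 and 10.26 in HFD livers and 9.68, 9.93 and 10.17 in chow livers. Its highest treated liver reached just above the lowest HFD liver, and the difference was -0.63 (SE 0.14, adjusted p = 0.0401). *Gstm6*, of the mu class of the same family (chromosome 3, 107741765 to 107746667), had 9.52, 9.58 and 9.63 in HFD+AC261066 livers, 9.78, 9.90 and 10.17 in HFD livers and 9.74, 9.84 and 10.24 in chow livers. All 6 treated livers lay below all 12 others, and the treated values were the tightest of the 3 groups. The difference was -0.36 (SE 0.08, adjusted p = 0.0366). *Gstm6* overlaps *Gstm3* on the same strand in the annotation, and close relatives may share its reads, so the values of single members are uncertain. *Gstm3* itself had -0.81 (adjusted p = 0.198).

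Enzymes and carriers of intermediary metabolism formed the next group. *Ugp2*, which makes UDP-glucose for glycogen and glucuronic acid (chromosome 11, 21221141 to 21271204), had 12.62, 12.75 and 12.97 in HFD+AC261066 livers, 13.05, 13.22 and 13.32 in HFD livers and 12.86, 13.24 and 13.61 in chow livers. The HFD+AC261066 and HFD livers did not overlap, and the difference was -0.41 (SE 0.10, adjusted p = 0.0545). *Sfxn1*, a mitochondrial serine carrier (chromosome 13, 54167214 to 54203715), had 10.87, 11.11 and 11.26 in HFD+AC261066 livers, 11.39, 11.48 and 11.58 in HFD livers and 11.11, 11.42 and 11.79 in chow livers. It likewise did not overlap with HFD (-0.39, SE 0.09, adjusted p = 0.041). *Prosc*, which encodes a protein that binds pyridoxal phosphate (chromosome 8, 28153027 to 28166603), had the smallest p of the 29. Its values were 10.64, 10.71 and 10.83 in HFD+AC261066 livers, 10.91, 10.98 and 11.07 in HFD livers and 10.87, 10.93 and 10.999 in chow livers. The highest treated liver was below the lowest of the 12 others, by a difference of means from HFD of only -0.25 (SE 0.05, adjusted p = 0.0189). Smaller or less certain differences were those of *Ivd*, the isovaleryl-CoA dehydrogenase of leucine breakdown (-0.30, adjusted p = 0.078), *Slc25a5*, an ADP/ATP carrier (-0.31, adjusted p = 0.0839), and *Idnk*, a gluconokinase (-0.20, adjusted p = 0.0651).

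Lipid proteins and others complete the lower genes. *Plin3*, a coat protein of small lipid droplets (chromosome 17, 56418385 to 56429934), had 9.52, 9.61 and 9.76 in HFD+AC261066 livers, 9.72, 9.90 and 10.06 in HFD livers and 9.74, 9.80 and 9.86 in chow livers, with a slight overlap and a difference of -0.26 (SE 0.07, adjusted p = 0.056). *Abhd15*, a hydrolase-fold protein known from fat cells for restraining lipolysis (chromosome 11, 77328623 to 77352109), had 10.36, 10.59 and 10.75 in HFD+AC261066 livers, 10.79, 10.84 and 10.98 in HFD livers and 10.63, 10.83 and 10.89 in chow livers. The HFD+AC261066 and HFD livers did not overlap (-0.28, SE 0.06, adjusted p = 0.0358). Coding genes on the other strand overlap *Abhd15* in the annotation. The same kind of overlap holds for *Prosc* and for the higher genes *Camk1*, *Ralgps2*, *Abcg8* and *Habp2*. Whether strand was used in counting is not given in the sources used here. *Cenpw*, a centromere protein (chromosome 10, 29915817 to 29920346), had 3.78, 3.93 and 4.05 in HFD+AC261066 livers, 4.08, 4.26 and 4.42 in HFD livers and 4.13, 4.22 and 4.35 in chow livers. Every treated liver was below every other liver (-0.33, SE 0.07, adjusted p = 0.0265), but the values are low and the reads behind them are not known. Of 24 tested genes of a cell cycle list 0 were called and 2 had an unadjusted p under 0.05. *Ivns1abp*, a Kelch-domain protein, had -0.35 (SE 0.08, adjusted p = 0.0377), the phosphate exporter gene *Xpr1* -0.23 (adjusted p = 0.0667) and the co-chaperone gene *Dnajc5* -0.21 (adjusted p = 0.0675).

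Of the 14 higher genes, 2 encode enzymes of eicosanoid synthesis. *Alox12*, the arachidonate 12-lipoxygenase (chromosome 11, 70054959 to 70068855), had 4.17, 4.49 and 4.65 in HFD+AC261066 livers, 3.97, 4.07 and 4.15 in HFD livers and 3.99, 4.09 and 4.22 in chow livers. The lowest treated liver was just above the highest HFD liver, and the difference was 0.37 (SE 0.08, adjusted p = 0.0258). *Ltc4s*, which joins leukotriene A4 to glutathione (chromosome 11, 50049971 to 50052118), had 3.97, 4.14 and 4.26 in HFD+AC261066 livers, 3.67, 3.81 and 3.84 in HFD livers and 3.41, 3.97 and 4.11 in chow livers. It was clear of HFD but not of chow (0.35, SE 0.09, adjusted p = 0.0758). Both genes have low values, as do *Tnnt1*, *Sult3a1* and *Hao2* below, and with no counts the reads behind them are not known.

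Receptors were the next kind. *Fcgr2b*, the inhibitory Fc receptor of liver sinusoidal endothelium and B cells (chromosome 1, 172890689 to 172906678), had 10.06, 10.24 and 10.33 in HFD+AC261066 livers, 9.79, 9.97 and 10.12 in HFD livers and 9.68, 10.00 and 10.07 in chow livers. The groups touched, and the difference was 0.27 (SE 0.07, adjusted p = 0.0718) with 0.00 for HFD minus chow. *Ifngr2*, the second chain of the interferon gamma receptor (chromosome 16, 91547317 to 91565414), had 9.32, 9.45 and 9.56 in HFD+AC261066 livers, 9.11, 9.27 and 9.29 in HFD livers and 9.08, 9.20 and 9.28 in chow livers. All treated livers lay above all others, by a difference of 0.21 (SE 0.06, adjusted p = 0.0972). Of 9 tested endothelial markers 2 were higher, beside 1.27% of all tested genes, and 0 were lower. The 2 were *Fcgr2b* and the VEGF receptor gene *Kdr* (0.30, adjusted p = 0.0483). Of the 9 markers, 5 had a positive and 4 a negative difference, 4 had an unadjusted p under 0.05, the largest in size was -0.45 for *Lyve1* (adjusted p = 0.309), and 0 were called without HFD+AC261066 replicate 4. The summed level of the endothelial list, as 2 raised to each value, was 10012 to 11803 in HFD+AC261066 livers and 9603 to 11301 in HFD livers, and its part in the *Fcgr2b* result was not tested. Of 4 B cell markers 0 were called and 1 had an unadjusted p under 0.05, and of 29 interferon response genes 0 were called and 1 had an unadjusted p under 0.05.

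Signalling and membrane genes made up most of the rest. *Cpne2*, a calcium-dependent membrane-binding copine (chromosome 8, 97056890 to 97094429), had 7.95, 8.25 and 8.57 in HFD+AC261066 livers, 7.49, 7.84 and 8.04 in HFD livers and 7.70, 7.90 and 8.11 in chow livers (difference 0.48, SE 0.11, adjusted p = 0.0361). *D630045J12Rik*, a gene without an assigned function here (chromosome 6, 38073174 to 38204009), had 7.46, 7.83 and 7.96 in HFD+AC261066 livers, 7.10, 7.25 and 7.39 in HFD livers and 6.97, 7.20 and 7.71 in chow livers. Only the first of these genes overlapped with HFD, and the second had the largest rise of the 14 (0.52, SE 0.12, adjusted p = 0.0444). *D630045J12Rik* overlaps *Atp6v0a4* on the same strand in the annotation, so its values are uncertain. *Sh3bp4*, an adaptor of endocytosis, had 0.34 (SE 0.08, adjusted p = 0.0462), *Nsmf* 0.36 (SE 0.09, adjusted p = 0.0583), the kinase gene *Mink1* 0.27 (SE 0.07, adjusted p = 0.0694), the exchange factor gene *Ralgps2* 0.32 (SE 0.09, adjusted p = 0.0701) and the calcium-dependent kinase gene *Camk1* 0.23 (SE 0.06, adjusted p = 0.0725). *Sh3bp4*, *Mink1* and *Camk1* did not overlap with HFD. The remaining higher genes were *Abcg8*, a subunit of the transporter that exports sterols into bile (0.33, adjusted p = 0.0896), *Habp2*, a secreted protease (0.22, adjusted p = 0.0918), and *Tnnt1*, a troponin of slow skeletal muscle (0.35, adjusted p = 0.0826).

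**Figure D2:**
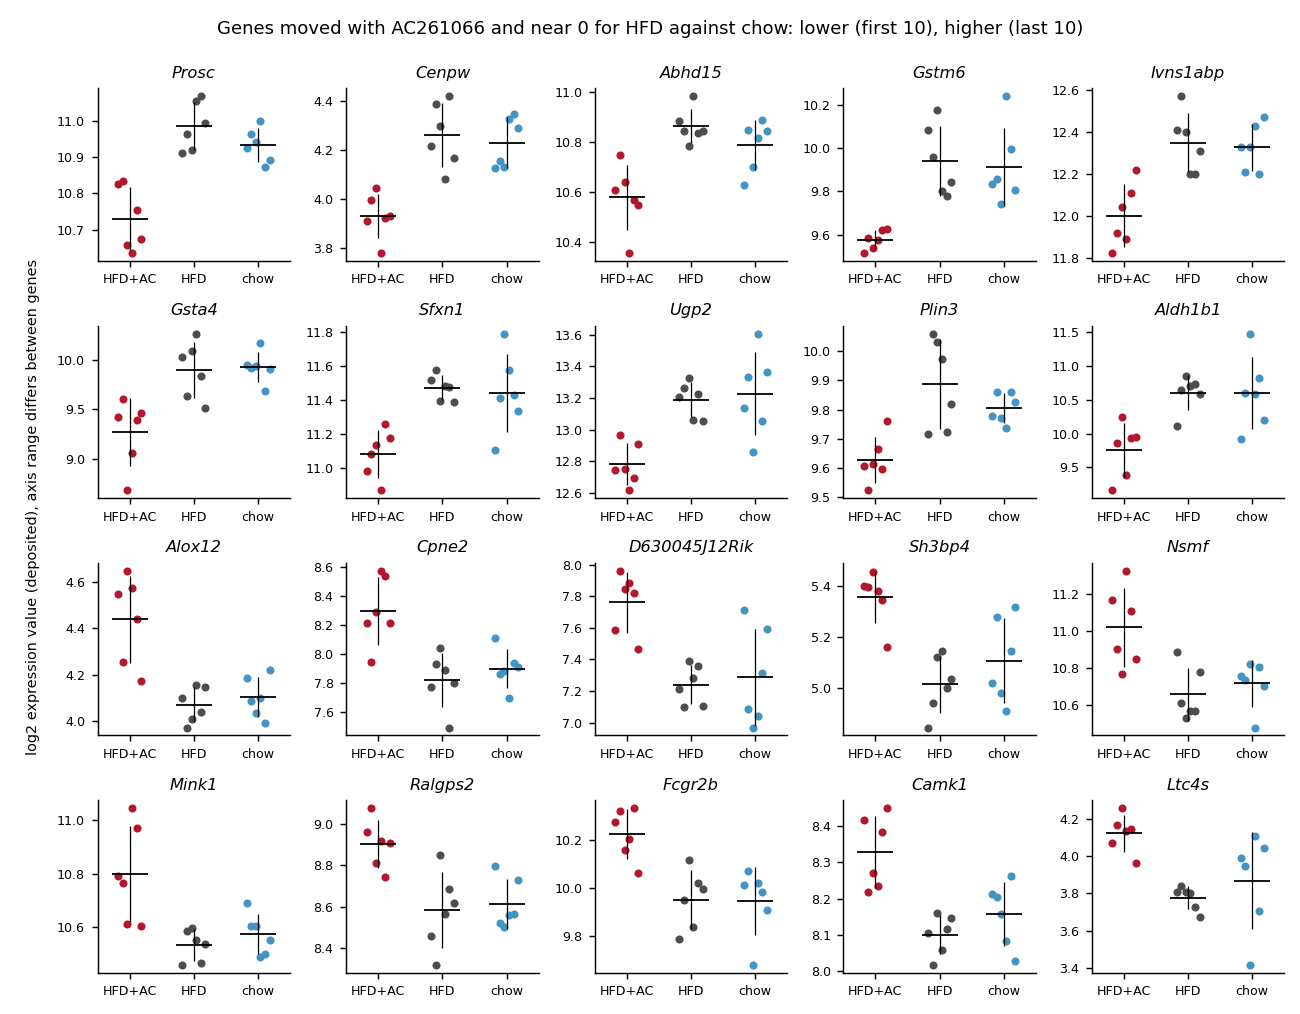
Deposited log2 value of each liver (points, y axis with its own range per gene) in HFD+AC261066 (HFD+AC), HFD and chow livers (x axis, 6 each), with the mean (horizontal line) and SD (vertical line), for the 10 lower and 10 higher genes with the smallest p among the 29. In *Prosc*, *Cenpw* and *Gstm6* all 6 treated livers lie below the 12 others, and the HFD and chow means differ by under 0.1 in every panel.

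The 29 genes had the same sign in both sets of libraries, which the choice over both sets favours, with a median size of 0.30 in libraries 1 to 3 and 0.35 in libraries 4 to 6. A test of the difference between sets called 66 of all 13268 tested genes and 0 of the 29. At so small a share 0 is the likeliest count among 29 genes, so it does not show that the sets agree. Single livers decide how many such genes are called. Without HFD+AC261066 replicate 4 there were 5, and without HFD+AC261066 replicate 6 there were 109. Leaving out HFD+AC261066 replicates 1, 2 and 5 gave 16, 56 and 14, and leaving out HFD replicates 2, 3, 4 and 5 gave 10, 10, 15 and 17. *Prosc*, *Alox12*, *Cenpw*, *Abhd15* and *Gstm6* were called whichever of the 12 livers was left out. *Cpne2*, *Ivns1abp* and *Sfxn1* lost the call only without HFD+AC261066 replicate 4 (adjusted p = 0.101, 0.102 and 0.111), *Gsta4* also without HFD replicate 3 (0.108 at most), and *D630045J12Rik* and *Sh3bp4* also without HFD replicate 2 (0.111 and 0.108 at most). The other 18 of the 29 kept the call in 2 to 6 of the 12 cases.

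Among the 25 of the 29 genes that matched a RefSeq promoter, with 31 windows, a single AGGTCA or its reverse complement lay in 16.1% of windows (*Fcgr2b*, *Idnk*, *Ivns1abp* and *Xpr1*), beside 14% of all windows, 11.4% of those of all tested genes and 15.2% of those of called genes. The antioxidant element TGACNNNGC, searched on both strands, lay in 6.45% (*Habp2* and *Slc25a5*), beside 10.2% of all windows and 11.6% of those of all tested genes. With 31 windows these shares rest on few matches and were given no test.

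Some called genes lay further from 0 for the diet without being called for it. *Scd1*, the desaturase that makes oleic acid (chromosome 19, 44468941 to 44482199), had 11.90, 12.57 and 12.82 in HFD+AC261066 livers, 12.99, 14.45 and 16.06 in HFD livers and 13.99, 15.15 and 16.82 in chow livers. All treated livers were below all 12 others and close together, while the livers without the compound were spread by set of libraries. HFD minus chow was 1.51 in libraries 1 to 3 and -2.76 in libraries 4 to 6 (adjusted p = 0.00188 by limma for the difference between sets), and HFD+AC261066 minus HFD was -2.93 and -1.24 in these sets (adjusted p = 0.155). The difference from HFD was -2.08 (SE 0.55, adjusted p = 0.066), HFD minus chow over both sets, which averages opposite signs, was -0.63 (adjusted p = 0.438), and HFD+AC261066 minus chow was -2.71 (adjusted p = 0.00733). The call was lost without HFD+AC261066 replicates 1, 4 or 5 or HFD replicates 2, 3 or 4, with an adjusted p of 0.165 at most. *Slco1a4*, a transporter of bile acids and organic anions (chromosome 6, 141753961 to 141804720), had 10.02, 10.27 and 11.07 in HFD+AC261066 livers, 11.04, 11.20 and 11.64 in HFD livers and 11.11, 12.01 and 12.22 in chow livers. One treated liver reached into the HFD range, and the difference was -0.94 (SE 0.20, adjusted p = 0.0267), with -0.47 for HFD minus chow (adjusted p = 0.101).

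In 5 of the 372 called genes the diet was called in the same direction, all lower: *Cyp3a11*, *Cyp3a25*, *Cyp3a16*, *Slc39a4* and *Tmx4*. Among all 13268 tested genes 3880 (29.2%) were called for the diet. *Cyp3a11*, the main drug-oxidizing P450 of the 3A family in mouse liver (chromosome 5, 146666002 to 146691540), had 13.73, 14.55 and 15.01 in HFD+AC261066 livers, 15.06, 15.51 and 15.85 in HFD livers and 16.40, 16.76 and 17.23 in chow livers. The 3 groups formed steps that did not overlap. The difference of HFD+AC261066 from HFD was -0.99 (SE 0.21, adjusted p = 0.024), and HFD minus chow was -1.29 (adjusted p = 0.000432). *Slc39a4*, a zinc importer (chromosome 15, 76442815 to 76447322), had 8.36, 8.72 and 8.98 in HFD+AC261066 livers, 8.73, 9.21 and 9.55 in HFD livers and 9.52, 10.06 and 10.20 in chow livers (-0.52 for HFD+AC261066 minus HFD, adjusted p = 0.0757; -0.81 for HFD minus chow). *Cyp3a25*, *Cyp3a16* and the thioredoxin-related gene *Tmx4* had -0.44, -0.36 and -0.25 for HFD+AC261066 minus HFD (adjusted p = 0.0701, 0.0843 and 0.0839), and -0.33, -0.59 and -0.21 for HFD minus chow. The 2 contrasts share the HFD livers, with opposite signs, which disfavours calls in the same direction.

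Of the pathway lists, the drug oxidases had the largest share of lower genes: of 29 tested genes of the Cyp2a, Cyp2b, Cyp2c and Cyp3a families 10 were lower (34.5%, beside 1.54% of all tested genes) and 0 higher, 24 had a negative difference, and the median was -0.33, beside 0.00 over all tested genes. The list was chosen with results of these data known. *Cyp2b13* and *Cyp2b9*, which male mouse liver normally keeps low, had the largest differences of all called genes. *Cyp2b13* (chromosome 7, 26846514 to 26881215) had 4.31, 4.52 and 5.75 in HFD+AC261066 livers, 5.96, 7.66 and 10.23 in HFD livers and 4.13, 4.28 and 4.46 in chow livers, with a difference of -3.02 (SE 0.52, adjusted p = 0.00989). *Cyp2b9* had 7.94, 10.40 and 11.75 in HFD+AC261066 livers, 12.14, 12.35 and 13.58 in HFD livers and 6.18, 7.35 and 8.11 in chow livers (-2.52, SE 0.48, adjusted p = 0.0154). In treated livers the first was close to chow, with 0.44 for HFD+AC261066 minus chow (adjusted p = 0.623), and the second stayed 2.96 above it (adjusted p = 0.00211).

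The lower drug oxidases did not share one response to the diet. *Cyp3a59* (chromosome 5, 146890834 to 146924861) had 8.05, 8.63 and 8.92 in HFD+AC261066 livers, 9.20, 9.77 and 10.71 in HFD livers and 9.44, 10.15 and 10.60 in chow livers. All treated livers were below the 12 others (-1.28, SE 0.25, adjusted p = 0.0189), and HFD minus chow was -0.23 (adjusted p = 0.559). *Cyp2c39*, which is known to hydroxylate retinoic acid in mouse liver (chromosome 19, 39585352 to 39643019), had 5.89, 6.35 and 6.87 in HFD+AC261066 livers, 6.79, 7.06 and 7.24 in HFD livers and 6.47, 6.65 and 6.80 in chow livers (-0.66, SE 0.13, adjusted p = 0.0189). The other lower members were *Cyp2c70*, which makes muricholic acids (-1.12, adjusted p = 0.0365, with 0.21 for HFD minus chow), *Cyp2a22* (-1.16, adjusted p = 0.0653, with 2.44) and *Cyp2c38* (-0.67, adjusted p = 0.0902, with 0.72). Close relatives in these families may share reads, so the split between single members is uncertain. The number of lower members ran from 5, without HFD+AC261066 replicate 4, to 11, without HFD+AC261066 replicate 6.

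The promoters of *Cyp2b13*, *Cyp2b9* and *Cyp3a11* are printed because these genes had large differences and because the first 2 show how alike the relatives are. Each is the 250 bases before the RefSeq start in GRCm38.p6, 5′ to 3′ on the gene's strand, at chr7:26061245-26061494 (plus), chr7:26173159-26173408 (plus) and chr5:145879855-145880104 (minus). Capitals mark AGGTCA, a half-site of many nuclear receptors.
Cyp2b13: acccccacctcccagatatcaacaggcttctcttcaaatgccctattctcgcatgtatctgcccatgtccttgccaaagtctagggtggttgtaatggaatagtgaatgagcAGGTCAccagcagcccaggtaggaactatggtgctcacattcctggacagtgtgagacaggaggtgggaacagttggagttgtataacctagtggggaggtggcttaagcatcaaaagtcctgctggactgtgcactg
Cyp2b9: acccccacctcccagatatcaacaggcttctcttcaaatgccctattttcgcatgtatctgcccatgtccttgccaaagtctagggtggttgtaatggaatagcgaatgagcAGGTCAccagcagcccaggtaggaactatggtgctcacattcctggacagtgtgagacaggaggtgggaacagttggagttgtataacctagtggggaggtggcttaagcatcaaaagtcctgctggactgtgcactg
Cyp3a11: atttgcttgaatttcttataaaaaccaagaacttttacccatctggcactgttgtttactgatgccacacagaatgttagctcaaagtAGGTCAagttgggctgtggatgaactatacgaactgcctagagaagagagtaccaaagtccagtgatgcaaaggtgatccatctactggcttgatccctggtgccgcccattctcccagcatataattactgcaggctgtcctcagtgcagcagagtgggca

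The windows of *Cyp2b13* and *Cyp2b9* have 248 of 250 bases in common and the half-site at the same place, bases -138 to -133, so they are not independent examples. AGGTCA, on either strand, lay in 8 of 12 windows of the 10 lower drug oxidases (66.7%), which belong to 7 genes, and in 2 of 17 windows of those that were tested and not called (11.8%), beside 14% of all windows. The motif was counted after the calls were known and was given no test.

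Some glutathione transferases were lower. Of 25 tested genes in a list of NRF2 targets and glutathione transferases 7 were lower (28%, beside 1.54% of all tested genes) and 0 higher. The median was -0.19, and 9 had a positive difference, up to 0.62 for *Gstp1* (adjusted p = 0.145). These 7 were 6 transferases and *Taldo1*, an enzyme of the pentose phosphate pathway (-0.26, adjusted p = 0.055). *Gstt1*, of the theta class (chromosome 10, 75246558 to 75261329), had 12.09, 12.19 and 12.47 in HFD+AC261066 livers, 12.59, 12.69 and 12.84 in HFD livers and 11.63, 11.94 and 12.10 in chow livers (-0.47, SE 0.08, adjusted p = 0.0111). Its neighbour *Gstt3* had 10.13, 10.50 and 10.99 in HFD+AC261066 livers, 11.19, 11.35 and 11.74 in HFD livers and 9.88, 10.73 and 10.98 in chow livers (-0.86, SE 0.16, adjusted p = 0.0155). Neither gene's treated livers overlapped with HFD. The diet had raised both, by 0.79 and 0.75, while *Gstm6* and *Gsta4* were near 0 for it. *Gsta1* and *Gstm2* had -0.43 and -0.78 (adjusted p = 0.0804 and 0.0904). The number of lower members ran from 3, without HFD+AC261066 replicate 4, to 8, without HFD+AC261066 replicate 6.

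**Figure D3:**
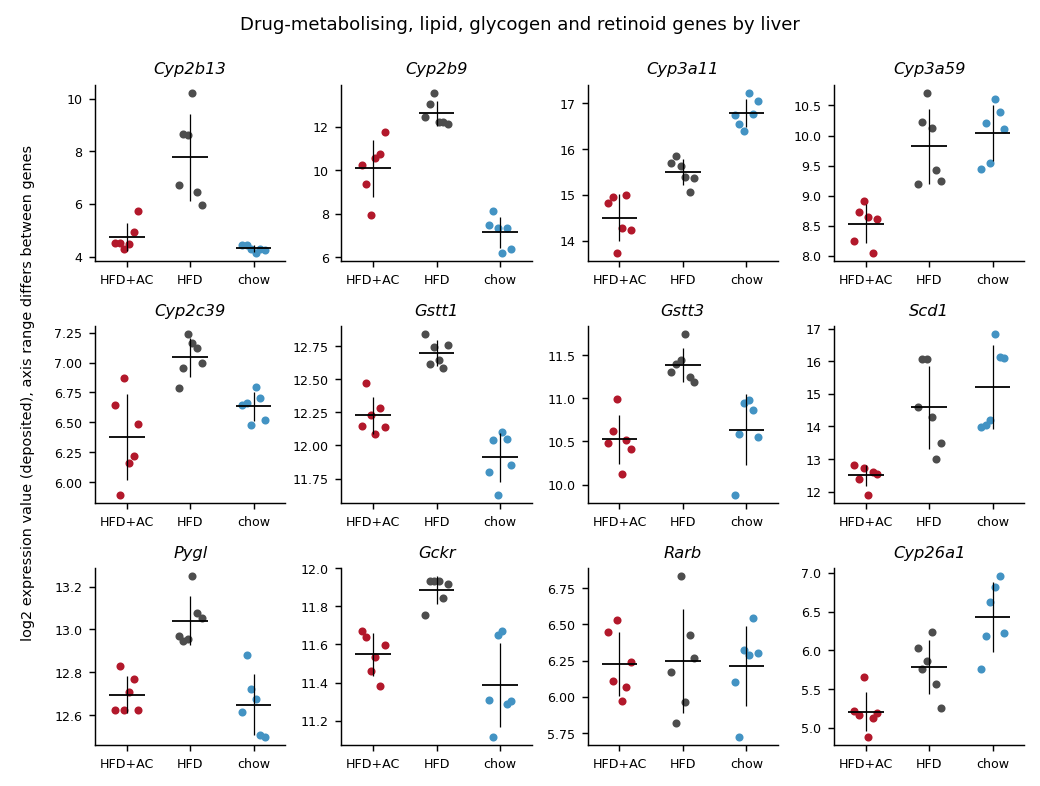
Deposited log2 value of each liver (points, y axis with its own range per gene) in HFD+AC261066 (HFD+AC), HFD and chow livers (x axis, 6 each), with mean and SD, for 12 genes of drug, lipid, glycogen and retinoid metabolism. The treated livers lie below all others in *Cyp3a11*, *Cyp3a59* and *Scd1*, and the 3 groups overlap in *Rarb*.

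Glycogen and glucose genes were lower in 4 of 17 tested (23.5%, beside 1.54% of all tested genes) and higher in 0. Besides *Ugp2* these were *Pygl*, *Gbe1* and *Gckr*. *Pygl*, the liver glycogen phosphorylase that releases glucose from glycogen (chromosome 12, 71291798 to 71332475), had 12.62, 12.67 and 12.83 in HFD+AC261066 livers, 12.94, 13.01 and 13.25 in HFD livers and 12.50, 12.64 and 12.88 in chow livers (-0.34, SE 0.07, adjusted p = 0.0256). *Gbe1*, the branching enzyme of glycogen synthesis, had -0.32 (SE 0.07, adjusted p = 0.0258), and *Gckr*, the glucokinase regulator, -0.34 (SE 0.08, adjusted p = 0.056). None of the 4 overlapped with HFD, beside 164 of the 372 called genes and 1.74% of all tested genes without overlap. Being called favours this. The 4 include a breakdown enzyme as well as synthetic ones. Of the 17 tested genes 11 had a negative and 6 a positive difference, up to 0.43. The diet had raised *Pygl*, *Gbe1* and *Gckr* by 0.39, 0.58 and 0.50, while HFD minus chow was -0.04 (SE 0.10) for *Ugp2*. Without HFD+AC261066 replicate 4 the count of lower genes was 2. Of 11 tested genes of fructose and polyol metabolism 2 were lower, *Khk* (-0.43, adjusted p = 0.0458) and *Xdh* (-0.24, adjusted p = 0.0804), and 0 without HFD+AC261066 replicate 4. Of 27 genes of the TCA cycle and pyruvate dehydrogenase 3 were lower, *Sdha*, *Suclg2* and the inhibitory kinase gene *Pdk1* (-0.28, -0.32 and -0.34, adjusted p = 0.056, 0.0608 and 0.0843), 24 had a negative difference, and 0 were called without HFD+AC261066 replicate 1.

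Lipid genes moved in both directions. Among all tested genes 1.54% were called lower and 1.27% higher. Of 20 tested genes of lipid droplets and triglyceride synthesis 4 were lower and 0 higher: *Dgat2*, the last enzyme of triglyceride synthesis (-0.29, SE 0.06, adjusted p = 0.0189), *Mogat1*, an acyltransferase of the same pathway (-0.86, SE 0.21, adjusted p = 0.0466), *Cidea*, which enlarges lipid droplets (-1.88, SE 0.38, adjusted p = 0.0219), and *Plin3*. Of these, *Plin3* was the one near 0 for the diet, and without HFD+AC261066 replicate 4 the count was 2. Fatty acid synthesis was lower in 2 of 18 tested, *Thrsp* (-1.91, SE 0.24, adjusted p = 0.00131) and *Scd1*, with 13 negative differences, and 1 was lower without HFD+AC261066 replicate 1. Of 29 tested PPARα targets 3 were higher (10.3%) and 0 lower, all of them fatty acid omega-hydroxylases: *Cyp4a31* (1.38, SE 0.16, adjusted p = 0.000602), *Cyp4a10* (0.64, SE 0.12, adjusted p = 0.0154) and *Cyp4a14* (0.81, SE 0.18, adjusted p = 0.0377). *Cyp4a14* had 16.39, 16.68 and 17.10 in HFD+AC261066 livers, 15.63, 15.87 and 16.13 in HFD livers and 16.13, 16.76 and 17.28 in chow livers. The median over all 29 targets was 0.04, and the number higher ran from 2, without HFD+AC261066 replicate 4, to 6, without HFD+AC261066 replicate 3. Of 17 genes of mitochondrial β-oxidation 1 was lower, *Echs1* (-0.32, adjusted p = 0.0687), and 0 higher. Of 5 adipocyte markers *Cfd*, the one tested, was lower (-1.60, SE 0.26, adjusted p = 0.00577). *Lep* was at 0 in all libraries, and the mean log2 values of *Adipoq*, *Plin1* and *Retn* were below 0. The summed level of the adipocyte list is nearly all *Cfd*, so it is no measure apart from that gene. It was 20.3 to 67.0 in HFD+AC261066 livers, 65.2 to 148 in HFD livers and 17.0 to 29.5 in chow livers. The part of fat cells in the lipid results was not tested.

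Genes that differ between male and female livers through growth hormone were called in a minority. The shares among all tested genes were 1.54% lower and 1.27% higher. Of 15 tested female-biased genes 5 were lower (33.3%) and 0 higher, and 14 had a negative difference. Besides *Cyp2b13*, *Cyp2b9* and *Cyp3a16* these were the sulfotransferase gene *Sult3a1* (-0.53, SE 0.10, adjusted p = 0.0154) and the monooxygenase gene *Fmo2* (-0.62, adjusted p = 0.0923). Of 22 tested male-biased genes 3 were higher (13.6%) and 0 lower, *Cyp4a12b* (1.48, SE 0.35, adjusted p = 0.0418) and the complement genes *C6* (0.68, SE 0.14, adjusted p = 0.0247) and *C8b* (0.64, SE 0.18, adjusted p = 0.0902). The median over the 22 was 0.55, and 5 had a negative difference. The largest differences in it, *Hsd3b5* with 1.84 and *Mup7* with 1.81, were not called (adjusted p = 0.147 and 0.145). The lower female-biased genes numbered 3 without HFD+AC261066 replicate 1, and the higher male-biased ones 1 without HFD+AC261066 replicate 4 and 7 without HFD replicate 1.

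Matrix genes had mostly negative differences, 24 of 26, with a median of -0.41, but 4 passed the test (15.4%, beside 1.54% lower among all tested genes). They were *Lgals1*, encoding galectin-1 (-1.29, SE 0.24, adjusted p = 0.0148), and the collagen genes *Col6a3* (-0.69, adjusted p = 0.0666), *Col3a1* (-1.28, adjusted p = 0.0754) and *Col1a1* (-1.34, adjusted p = 0.089). *Col1a1* had 5.85, 6.35 and 6.84 in HFD+AC261066 livers, 6.50, 7.37 and 9.08 in HFD livers and 6.42, 6.73 and 8.06 in chow livers, so that the HFD and chow livers were widely spread. HFD minus chow was 0.78 for this gene and was not called (adjusted p = 0.149). The number called ran from 1, without HFD+AC261066 replicate 1, to 9, without HFD+AC261066 replicate 6. Of 9 stellate cell markers 0 were called, 2 had an unadjusted p under 0.05 and 8 were negative, among them *Lrat* (-0.34) and *Reln* (-0.29). The summed level of the stellate list was 5929 to 7880 in HFD+AC261066 livers, 6579 to 10085 in HFD livers and 5164 to 8655 in chow livers, and its part in the matrix result was not tested.

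Few genes of protein synthesis and breakdown passed the test. Among all tested genes 1.27% were called higher. All 31 tested proteasome subunits had a positive difference (median 0.14) and 3 were called higher, *Psmd11* (0.21), *Psmd7* (0.26) and *Psmc3* (0.24), with adjusted p = 0.0794, 0.0839 and 0.0928. Of 76 tested cytoplasmic ribosomal protein genes 69 had a positive difference (median 0.15) and 5 were called higher, among them *Rps26* (0.47, SE 0.11, adjusted p = 0.0361), *Rps10* (0.32, adjusted p = 0.0701), *Rps24* (0.33, adjusted p = 0.0896) and *Rpl23* (0.28, adjusted p = 0.0918). *Rps26* had 11.002, 11.43 and 11.75 in HFD+AC261066 livers, 10.78, 10.87 and 11.21 in HFD livers and 11.29, 11.32 and 11.49 in chow livers, an overlap of treated and HFD livers. With every library shifted to the same median, *Psmc3*, *Rpl23* and *Rps24* were no longer called (adjusted p = 0.11, 0.106 and 0.1003), with values of 0.23, 0.26 and 0.31. The number of ribosomal genes called ran from 0, without HFD+AC261066 replicate 4, to 13, without HFD+AC261066 replicate 2, and that of proteasome genes from 0, without HFD+AC261066 replicate 1, to 9, without HFD+AC261066 replicate 2. Ribosomal protein genes have many near-identical copies, which makes single values uncertain.

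**Figure D4:**
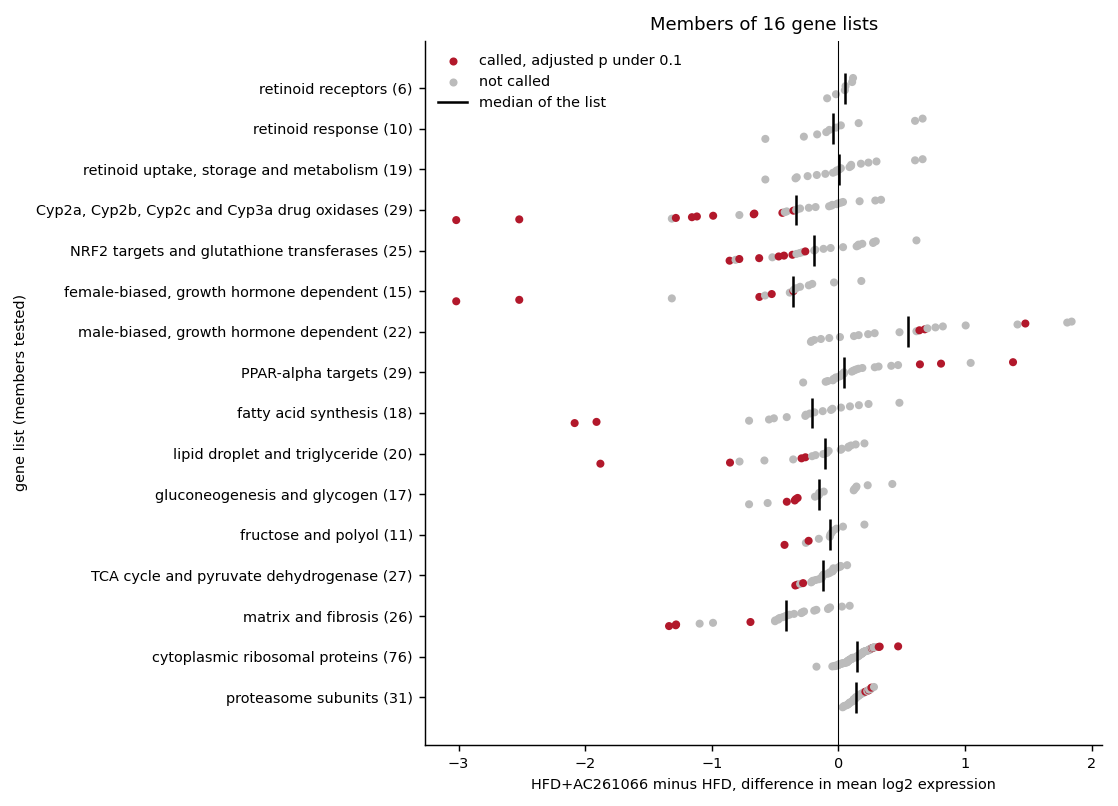
Differences in mean log2 expression, HFD+AC261066 minus HFD (x axis), for the tested members of 16 gene lists (y axis, number tested in parentheses). Red points are called genes, grey points genes not called, and black bars the median of each list, from -0.41 for matrix to 0.55 for male-biased genes. No member of the retinoid lists is red.

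Outside these lists the largest rises were those of *Serpina1e*, an α1-antitrypsin of mouse liver (chromosome 12, 105185141 to 105197185), and *Asns*, the asparagine synthetase. *Serpina1e* had 16.32, 16.88 and 17.80 in HFD+AC261066 livers, 13.77, 15.38 and 16.20 in HFD livers and 16.77, 17.41 and 17.70 in chow livers (1.70, SE 0.34, adjusted p = 0.0189). *Asns* had 6.23, 6.70 and 8.98 in HFD+AC261066 livers, 4.68, 5.73 and 6.08 in HFD livers and 7.87, 8.24 and 8.80 in chow livers (1.59, SE 0.37, adjusted p = 0.0401, and 0.104 without HFD replicate 3). In both genes the treated and HFD livers did not overlap. *Enho*, the gene of the secreted peptide adropin, had 1.31 (SE 0.26, adjusted p = 0.021), and *Igfbp2*, a binding protein of insulin-like growth factors, 1.16 (SE 0.23, adjusted p = 0.021). Among the largest falls, *Hao2*, a peroxisomal hydroxyacid oxidase, had 3.79, 4.12 and 4.95 in HFD+AC261066 livers, 5.07, 6.15 and 6.85 in HFD livers and 3.79, 3.87 and 3.94 in chow livers (-1.91, SE 0.26, adjusted p = 0.00173). The diet had moved all of these the other way, by -2.12, -2.77, -1.13, -1.65 and 2.25 in the order named, and these contrasts share the HFD livers.

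Several pathways gave no called gene by limma: 0 of 23 tested genes of cholesterol synthesis (1 with an unadjusted p under 0.05), 0 of 19 of the circadian clock (2), 0 of 16 of the glucocorticoid response (3), 0 of 8 of MHC class II (2) and 0 of 16 immediate early genes (2). The cell type markers of Kupffer cells (0 of 10 called, 1 with an unadjusted p under 0.05), lipid-associated macrophages (0 of 6, 4), monocytes (0 of 5, 1), neutrophils (0 of 4, 0) and T and NK cells (0 of 8, 1) gave none either. The unadjusted p was under 0.05 in 2085 of all 13268 tested genes. Of the 6 lipid-associated macrophage markers 5 had a negative and 1 a positive difference, with a median of -0.33, and their median for HFD minus chow was 0.41. A missed threshold does not show that these genes were alike in the groups.

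**Figure D5:**
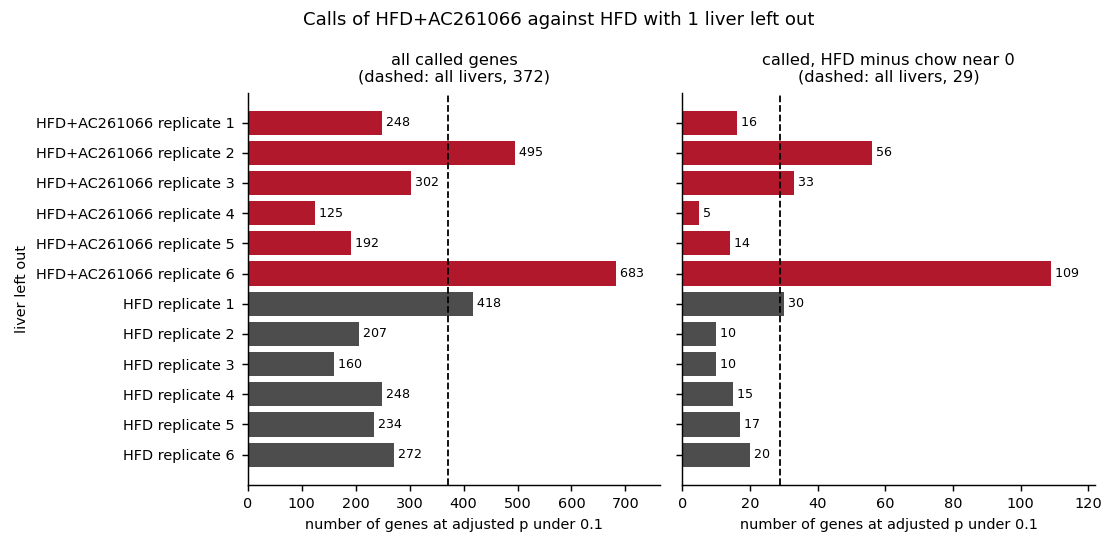
Number of genes called for HFD+AC261066 against HFD (x axes) when the liver named on the y axis is left out, for all genes (left) and for genes near 0 for the diet (right). Dashed lines are the counts with all livers, 372 and 29; the bars run from 125 to 683 and from 5 to 109, lowest without HFD+AC261066 replicate 4 and highest without HFD+AC261066 replicate 6.

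Across all genes, the number called fell to 125 without HFD+AC261066 replicate 4 and was 683 without HFD+AC261066 replicate 6. Leaving out HFD+AC261066 replicate 5 gave 192, and leaving out HFD replicates 2, 3 and 5 gave 207, 160 and 234. Without HFD+AC261066 replicate 3, the liver among the chow livers on the first component, 302 genes were called, 33 of them near 0 for the diet.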

How the data were processed

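Livers of 18 mice were profiled by RNA-seq. Per the submitters' processing notes, reads were handled with bcl2fastq 2.17 and cutadapt, aligned with TopHat2 2.0.11 to mm9 and counted with HTSeq 0.6.1, and DESeq2 1.6.3 was used. The authors removed batch effects and deposited log2 values per gene and library, by a transform not given in the sources used here. Counts were not used here and the depth of each library is unknown, so errors reflect only how the mice of a group varied. The labels' library kit and growth protocol do not describe liver RNA, and the study's supplement was followed. Columns of other samples numbered 0.

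Genes that averaged 2 or more on the log2 scale over all libraries were fitted with limma 3.58.1 in R 4.3.3 (trend, empirical Bayes, 14 residual degrees of freedom) with terms for group and set of libraries (numbers 1 to 3, 4 to 6), whose means the deposited values have in common. The labels do not say what the sets are. The test was checked on simulated data. Benjamini-Hochberg adjustment covered 13268 genes, with calls at 0.1. Differences are between mean log2 values, with SE from the fit.

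Named genes were the 10 lower and 10 higher genes near 0 for the diet with the smallest p, the 6 largest differences in each direction, up to 8 genes called in the same direction as the diet, up to 4 called members of each list described, and the retinoid receptor and response genes, of which 1 is not reported here. *Idnk*, *Xpr1*, *Dnajc5*, *Ivd*, *Slc25a5*, *Tnnt1*, *Abcg8*, *Habp2*, *Ifngr2*, genes at the limit of 0.1 and further list members were named after their values were seen. The comparison, the lists and the limit were chosen with earlier results of these data known.

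Alternatives were no set term, each set alone, the replicate number as a block, other minimums, quantile normalization, equal medians, no trend, only the 2 groups, other thresholds, and each library left out. Near 0 in each set of libraries was added after seeing the data. Positions of genes are those of mm9, and promoters those of RefSeq (GRCm38.p6). Figures used Python 3.11.15 and matplotlib 3.10.9.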

Additional observations from a re-analysis of the deposited data

Results flagged for a closer look

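Of 111 groups of 6 livers, over 37 named genes, 6 held a liver whose gap to its nearest neighbour exceeded Dixon's 95% critical value as a share of the group's range, and chance gives about 1 in 20. In HFD+AC261066 livers this was *Cidea* in replicate 6, the highest at 4.73, with the next at 3.88. In HFD livers it was *Aldh1b1* in replicate 1, the lowest at 10.11, with the next at 10.58. In chow livers it was *Nsmf* in replicate 4 (lowest, 10.48, next 10.70), *Serpina1e* in replicate 4 (lowest, 16.77, next 17.36), *Slc39a4* in replicate 3 (lowest, 9.52, next 9.98) and *Tmx4* in replicate 3 (highest, 9.30, next 9.17).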

How the results depend on the processing

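The number of genes called, 372 in all and 29 near 0 for the diet, was 581 and 66 without the set term, 23 and 1 from libraries 1 to 3 alone, 620 and 115 from libraries 4 to 6 alone, and 172 and 11 at an adjusted p under 0.05. With each library left out in turn it ran from 125 to 683, and near 0 from 5 to 109. With near 0 taken as under 0.2 there were 80 genes, and with HFD against chow not called in its place 83. With HFD minus chow under 0.1 in each set of libraries, chosen after seeing the data, there were 13. The replicate number as a replicate block gave 292 and 21, of which 269 and 18 were the same genes. The labels do not say that a number marks shared mice, and same-numbered libraries did not deviate together (correlations -0.156 to 0.098). No minimum, a minimum of 1 or 5, quantile normalization, equal medians, no trend and a fit of only the 2 groups gave 300 to 421 and 24 to 35.

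Among the named genes, whose signs were compared under these alternatives, those that changed sign were retinoid genes that were not called. From libraries 1 to 3 alone *Rara* had -0.064, *Rarb* 0.086, *Rarg* -0.11, *Rxrb* -0.0075 and *Rxrg* 0.13, and from libraries 4 to 6 alone *Tgm2* had 0.16. With quantile normalization *Rarb* had 0.015. With each library left out *Rarb* ran from -0.11 to 0.11 and *Dhrs3* from -0.040 to 0.10. The causes were not tested. With 6 livers per group and the reads behind each value unknown, a gene that missed the threshold is not shown to be unchanged.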
